A study of Mus musculus with 12 samples.

Results

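Peritoneal macrophages that lack *N4bp1* were compared after stimulation with LPS and with R848. All listed genes, 120 single genes and 4 joined loci for which the authors deposited values in these cells, were kept, with no selection on level or difference, and the members are the 4 *N4bp1-/-* libraries with a stimulus, out of 12 libraries in the series. The mice were C57BL/6J animals of 8 to 12 weeks and both sexes. Homozygous *N4bp1-/-* mice carried a deletion of 4 base pairs in exon 2, made with CRISPR-Cas9, and wild-type mice served as controls. Macrophages drawn into the peritoneal cavity with thioglycollate were recovered by lavage and cultured. They received no stimulus, R848 at 20 ng/ml or LPS at 10 ng/ml, for 2 h. Cells of 2 mice were used in each combination of genotype and treatment. Stranded mRNA libraries were sequenced, and the study's legend for this experiment says that it was done once.

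LPS is a component of the outer membrane of Gram-negative bacteria and activates TLR4, a receptor that signals through the adapter MyD88 and, from endosomes, through the adapter TRIF. R848 is a small synthetic ligand of TLR7, which signals through MyD88. Both adapters lead to the transcription factor NF-κB, and the TRIF branch also activates IRF3, which turns on type I interferon and, through it, interferon-inducible genes in macrophages. The comparison asks which of the listed NF-κB-dependent genes reached other levels after the TLR4 ligand than after the TLR7 ligand when *N4bp1* was missing.

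The authors deposited 1 mean FPKM per gene, genotype and treatment. FPKM is a count of sequenced fragments that is adjusted for transcript length and for how many fragments of the library were mapped. Values of single mice were not analysed here, so there is no error for any value below, no test was made, and the depth behind a value is unknown. Genes are called higher after a stimulus where the ratio of the 2 means is at least 2-fold, which is a description and not a test. Each ligand was given at 1 dose and 1 time, and the doses are not matched in potency. The sources do not state how libraries of different treatments were scaled to one another. The *N4bp1* transcript is not among the listed genes, so the deletion was not checked. Of 7 macrophage markers, 1 was listed, *Spi1* (the transcription factor PU.1), at a mean of 335 FPKM after R848 and 276 after LPS, and the other markers that define macrophages could not be checked. Of 4 T cell markers, 0 were among the listed genes.

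In the knockout cells 21 of the listed genes (16.9%) were at least 2-fold higher after LPS than after R848, and 12 (9.68%) were at least 2-fold higher after R848. The other 91 (73.4%) lay within 2-fold, and 68 of them within 1.5-fold. The directions differed in size. The largest ratio toward LPS was 125-fold, with 11 genes at 4-fold or more and 5 at 16-fold or more, while the largest toward R848 was 3.56-fold and 0 genes reached 4-fold. By sign alone, 56 genes were higher after LPS and 68 after R848. The median log2 ratio of LPS to R848 was −0.11, with quartiles of −0.46 and 0.62. Relative to the median listed gene every log2 ratio is higher by 0.11, and relative to the 31 genes with the lowest folds over unstimulated cells it is higher by 0.31. Under the second of these scalings 27 genes were past 2-fold toward LPS and 6 toward R848, and the median was 0.20, so the sign of a small ratio depends on the scaling. In bulk RNA such as this, a difference in the number of cells that make a transcript and a difference in the RNA per cell cannot be told apart.

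**Figure D1:**
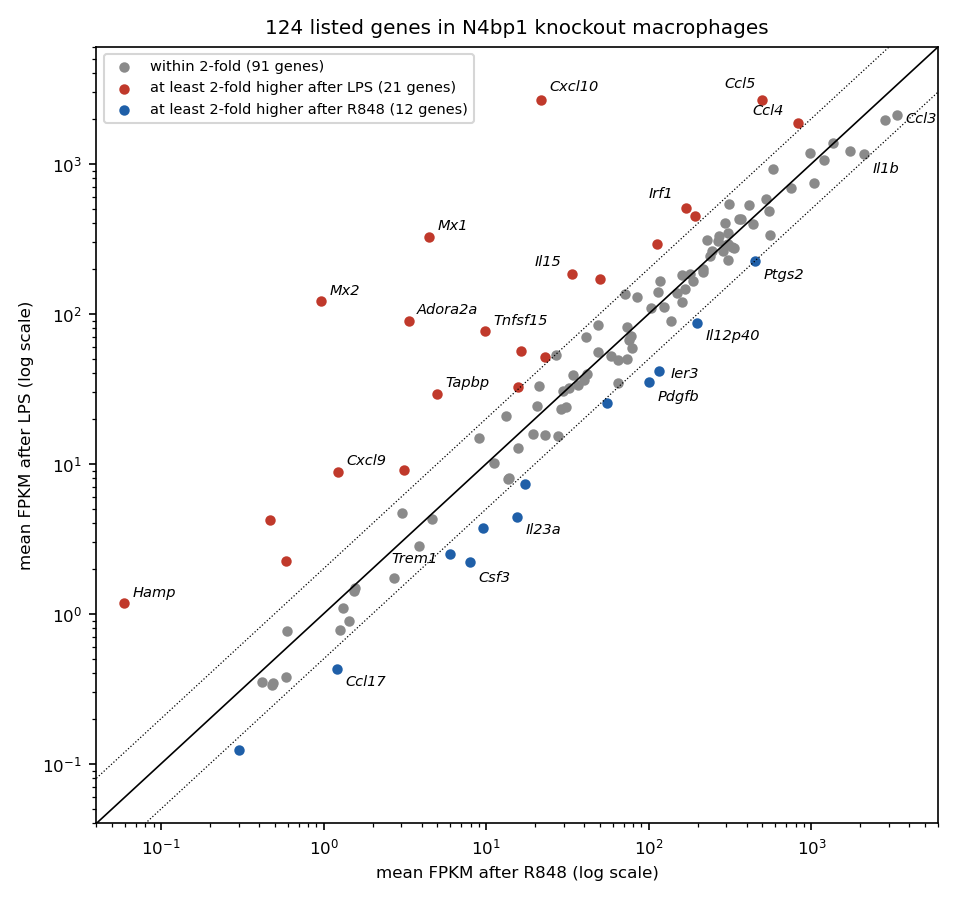
Mean FPKM of the listed genes in *N4bp1-/-* macrophages after R848 (x axis) and after LPS (y axis), both on log scales; each point is 1 gene and 1 pair of the authors' means over 2 mice. The solid line marks equal values and the dotted lines a 2-fold ratio; most points lie between the dotted lines, 21 lie above them by up to 125-fold, and 12 lie below them by at most 3.56-fold.

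Ahead of *Adora2a* and *Hamp* from other groups, the widest ratios were those of *Mx2*, *Cxcl10* and *Mx1*, which are interferon-inducible genes. Of 11 such genes on the list, 10 were at least 2-fold higher after LPS, against 16.9% of all listed genes, and 0 after R848, against 9.68%, with a median log2 ratio of 2.45 against −0.11 over all listed genes. Their summed mean was 1124 FPKM after R848 and 7267 FPKM after LPS. These lists were drawn up with earlier results of these data known, so the counts describe the genes and are not independent evidence.

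*Cxcl10* encodes a chemokine that draws activated T cells and NK cells through the receptor CXCR3. Its mean was 1.91 FPKM without stimulus, 21.7 after R848 and 2669 after LPS, a 123-fold ratio. It thus ranked 82 by level among the listed genes after R848 and was the gene with the highest mean after LPS, where it held 7.99% of the summed FPKM of the list. The interval that the files give for it (mm10, chromosome 5, 92331827 to 92414628) is 82802 bases long, whereas the RefSeq gene is 2252 bases long. *Cxcl9*, its neighbour on chromosome 5 (92321347 to 92328079) and another ligand of CXCR3, was far lower. Its mean was 1.23 FPKM after R848 and 8.87 after LPS, a log2 ratio of 2.85.

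The 250 bases before the start of *Cxcl10* are shown because this gene had one of the widest ratios and its window held matches to both motifs searched. The sequence is from RefSeq (GRCm38.p6, minus strand, chr5:92348890-92349139), 5′ to 3′. Capitals mark the matches: first the core of the interferon-stimulated response element (ISRE; the letters GAAA 2 times with any 2 bases between) 213 bases before the start, then matches to the κB consensus, the site that NF-κB dimers bind, 159 and 103 bases before it.
Cxcl10: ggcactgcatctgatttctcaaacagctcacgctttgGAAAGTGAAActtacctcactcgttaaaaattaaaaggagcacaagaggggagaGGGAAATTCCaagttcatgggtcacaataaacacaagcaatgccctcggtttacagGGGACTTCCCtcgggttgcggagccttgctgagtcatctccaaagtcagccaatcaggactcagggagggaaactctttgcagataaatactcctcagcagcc

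*Mx1* and *Mx2* belong to the family of dynamin-like antiviral GTPases and lie next to each other on chromosome 16 (97447035 to 97463003 and 97535308 to 97560900). RefSeq annotates *Mx1* of the C57BL/6J genome as a transcribed pseudogene. The mean of *Mx1* was 0.633 FPKM without stimulus, 4.46 after R848 and 326 after LPS, a 73.1-fold ratio. That of *Mx2* was 0.200 without stimulus, 0.967 after R848 and 121 after LPS, a 125-fold ratio. Over unstimulated cells these are folds of 7.04 and 4.83 after R848 and of 515 and 603 after LPS. Reads shared by such related genes could have been divided between them, so the split between the pair is uncertain.

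The remaining interferon-inducible genes had narrower ratios. *Ccl5*, a chemokine for T cells and monocytes (chromosome 11, 83524875 to 83530518), had a mean of 6.39 FPKM without stimulus, 496 after R848 and 2655 after LPS, a 5.35-fold ratio. *Il15*, a cytokine that sustains NK cells and memory CD8+ T cells, had a mean of 33.8 FPKM after R848 and 184 after LPS. *Tapbp*, which encodes tapasin, the chaperone that loads peptides on MHC class I, had a mean of 4.97 FPKM after R848 and 29.4 after LPS. These are ratios of 5.35 to 5.91. *Irf1*, an interferon regulatory factor that acts with NF-κB, had a mean of 169 FPKM after R848 and 505 after LPS, a 2.99-fold ratio. *Cd274*, which encodes the inhibitory ligand PD-L1, had a mean of 113 FPKM after R848 and 290.2 after LPS. The exception in the group was *Psme2*, a subunit of the proteasome activator PA28, whose mean was 229 FPKM after R848 and 309 after LPS, a 1.35-fold ratio.

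**Figure D2:**
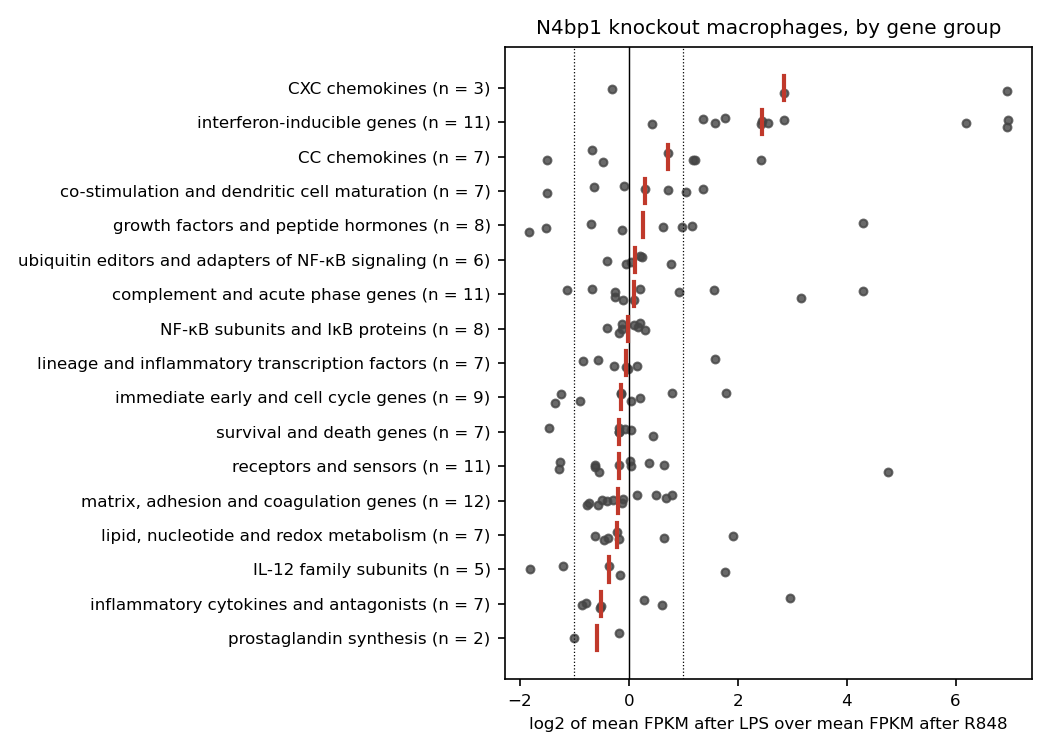
Log2 ratio of mean FPKM after LPS to mean FPKM after R848 in *N4bp1-/-* macrophages for the genes of 17 groups (a gene may be in more than 1); each point is 1 gene, red bars are group medians, the solid line is an equal level and the dotted lines are 2-fold. Medians run from 2.85 for 3 CXC chemokines and 2.45 for 11 interferon-inducible genes to −0.59 for 2 prostaglandin synthesis genes, and the 8 NF-κB subunits and IκB proteins lie between −0.41 and 0.30.

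Of 7 CC chemokines, which recruit monocytes, T cells and other leukocytes, 3 were at least 2-fold higher after LPS and 1 after R848, against 16.9% and 9.68% over all listed genes. *Ccl3* and *Ccl4* encode closely related chemokines and stand next to each other on chromosome 11 (83647844 to 83649355 and 83650583 to 83664683). They nonetheless had opposite ratios. *Ccl3* had the highest mean of all genes after R848, 3382 FPKM, and a mean of 2108 after LPS, a log2 ratio of −0.68. *Ccl4* had a mean of 825 FPKM after R848 and 1859 after LPS, a log2 ratio of 1.17. *Ccl2*, the main chemokine for monocytes through CCR2, followed *Ccl4*, with means of 193 and 447 FPKM. *Ccl17*, a ligand of CCR4, was the CC chemokine above 2-fold in the other direction, at a low level of 1.20 FPKM after R848 and 0.426 after LPS. *Ccl22*, the other ligand of CCR4 and a close neighbour of *Ccl17* on chromosome 8, had means of 8.99 and 14.8 FPKM, a log2 ratio of 0.72 that points toward LPS. Of the CXC chemokines, *Cxcl5*, which draws neutrophils, was the member outside the CXCR3 pair and had a log2 ratio of −0.31.

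Among 7 inflammatory cytokines and antagonists, *Tnfsf15* alone was past 2-fold toward LPS, against 16.9% of all listed genes. It encodes TL1A, a TNF family cytokine that co-stimulates T cells, and its mean was 0.171 FPKM without stimulus, 9.88 after R848 and 76.9 after LPS, a 7.78-fold ratio. The median log2 ratio of the group was −0.51. *Tnf*, a central inflammatory cytokine (chromosome 17, 35199381 to 35202007), had a mean of 10.8 FPKM without stimulus, 2838 after R848 and 1955 after LPS. *Il1b*, which encodes the secreted pyrogen IL-1β, had a mean of 2.08, 2108 and 1160 FPKM in the same order, and was 1.82-fold higher after R848. *Il1a*, its neighbour on chromosome 2, had means of 1724 and 1212 FPKM after R848 and LPS. These 3 cytokines were all higher after R848, by less than 2-fold. *Il1rn*, which encodes the antagonist of the IL-1 receptor, had means of 356 and 431 FPKM, a log2 ratio of 0.27 on the other side of equal. *Il10*, an anti-inflammatory cytokine, had low means of 13.7 FPKM after R848 and 7.95 after LPS, a log2 ratio of −0.78.

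*Il6*, which encodes a cytokine of fever and the acute phase response, went the other way from *Tnf* and *Il1b*. Its mean was 0.331 FPKM without stimulus, 84.3 after R848 and 129 after LPS, a log2 ratio of 0.62. The 250 bases before its start are shown because the study followed this promoter, and they held 1 match to the κB consensus, in capitals, 44 bases before the start, and 0 matches to the ISRE core (RefSeq, GRCm38.p6, plus strand, chr5:30012864-30013113).
Il6: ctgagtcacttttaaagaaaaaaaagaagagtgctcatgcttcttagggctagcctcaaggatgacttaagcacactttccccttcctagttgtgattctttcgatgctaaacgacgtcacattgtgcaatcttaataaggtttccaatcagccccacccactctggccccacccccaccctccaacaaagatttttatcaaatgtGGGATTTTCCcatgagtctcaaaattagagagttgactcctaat

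Subunits of the IL-12 family did not share a direction: of 5, 1 was at least 2-fold higher after LPS and 2 after R848, against 16.9% and 9.68% over all listed genes, with a median log2 ratio of −0.37. These cytokines are pairs of chains: IL-12 is p35 with p40, IL-23 is p19 with p40, and IL-27 is p28 with EBI3. *Il12p40* (the name the files use for *Il12b*) had a mean of 0.147 FPKM without stimulus, 198 after R848 and 86.3 after LPS, a log2 ratio of −1.20. *Il23a*, which encodes p19, was listed at 0 without stimulus and had a mean of 15.4 FPKM after R848 and 4.39 after LPS, 3.52-fold higher after R848. Both chains of IL-23 were thus past 2-fold toward R848, but *Il12p40* was within 2-fold (log2 ratio −0.89) relative to the 31 genes with the lowest folds. *Il12a*, for p35, had means of 58.4 and 52.3 FPKM and was near equal. *Il27*, for p28, had means of 50.02 FPKM after R848 and 171 after LPS, 3.41-fold higher after LPS, while *Ebi3* had means of 31.04 and 24.0 FPKM. Of the chains of IL-27, p28 was thus past 2-fold toward LPS, whereas EBI3 was within 2-fold, with a log2 ratio of −0.37.

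Of 8 growth factors and peptide hormones, 2 were at least 2-fold higher after LPS and 2 after R848, against 16.9% and 9.68% over all listed genes, and the median log2 ratio was 0.25. *Csf3* encodes G-CSF, which drives the production of neutrophils, and had the ratio farthest toward R848 of all listed genes. Its mean was 0.0375 FPKM without stimulus, 7.92 after R848 and 2.23 after LPS. *Pdgfb*, a mitogen for mesenchymal cells, had a mean of 14.5 FPKM without stimulus, 100.2 after R848 and 34.8 after LPS. *Edn1*, which encodes the vasoconstrictor endothelin-1, had a mean of 0.168 FPKM without stimulus, 22.98 after R848 and 51.2 after LPS, and was the growth factor group's member above 2-fold toward LPS at a mean over 10 FPKM. *Hamp* encodes hepcidin, the hormone that limits iron release from cells. Its mean was 0.0876 FPKM without stimulus, 0.0594 after R848 and 1.18 after LPS, so its 19.8-fold ratio rests on a level near 0 after R848. The interval given for *Hamp* is 56482 bases long against 1662 for the RefSeq gene. *Csf1*, for the macrophage growth factor M-CSF, lay just short of 2-fold toward LPS, with means of 27.0 and 53.1 FPKM.

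Of 11 receptors and sensors 8 were within 2-fold, a share near the 73.4% of all listed genes, with a median log2 ratio of −0.18. *Adora2a*, which encodes an adenosine receptor that restrains inflammatory responses, was the exception toward LPS. Its mean was 3.32 FPKM without stimulus, 3.33 after R848 and 89.9 after LPS, a 27.0-fold ratio. The mean after R848 was thus close to that without stimulus. *Trem1*, a receptor that amplifies inflammatory responses in myeloid cells, had means of 6.00 FPKM after R848 and 2.49 after LPS, and *Fcer2a*, the low affinity receptor for IgE, had means of 0.303 and 0.124 FPKM. *Tnfrsf1b*, for the TNF receptor TNFR2, had means of 1366 and 1384 FPKM, a log2 ratio of 0.02. *Tlr2*, the receptor for bacterial lipopeptides, had means of 415 and 534 FPKM, a log2 ratio of 0.37. *Nod2*, a cytosolic sensor of bacterial cell wall fragments, had means of 21.2 and 32.9 FPKM, a log2 ratio of 0.64.

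Genes of the NF-κB pathway itself had ratios near equal. All 8 listed subunits and IκB proteins lay within 2-fold, against 73.4% of all listed genes, between −0.41 for *Nfkbiz* and 0.30 for *Nfkbie* on the log2 scale, with a median of −0.02. *Nfkbia*, which encodes IκBα, the inhibitor that holds NF-κB in the cytoplasm, had a mean of 44.8 FPKM without stimulus, 750.0 after R848 and 690.5 after LPS. *Nfkb1*, for the p105 precursor of p50, had means of 308 and 345 FPKM after R848 and LPS. *Rel*, for c-Rel, had means of 48.5 and 55.7 FPKM, and *Relb* had means of 75.5 and 66.7 FPKM. The 6 ubiquitin editors and adapters of the pathway were also all within 2-fold, against the same 73.4%, with a median log2 ratio of 0.12. *Tnfaip3*, which encodes the ubiquitin editing enzyme A20, had means of 370.1 FPKM after R848 and 425 after LPS. *Tnip1*, for the A20 partner ABIN1, and *Traf1*, an adapter of TNF receptors, were nearly equal, with log2 ratios of −0.05 and 0.03, as was *Gadd45b*, a stress response gene, at 0.03. *Ripk2*, the kinase that signals for NOD2, had the widest ratio of the 6, 1.71-fold toward LPS, and was past 2-fold relative to the 31 genes with the lowest folds.

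Of 7 survival and death genes, 6 were within 2-fold, against 73.4% of all listed genes, the exception being *Ier3*, and the median log2 ratio was −0.18. *Ier3* is an immediate early gene that affects cell survival (chromosome 17, 35821684 to 35822923), and its mean was 12.1 FPKM without stimulus, 115 after R848 and 41.2 after LPS, 2.78-fold higher after R848. Its upstream window is shown beside those of *Cxcl10* and *Il6* as that of a gene in the opposite direction. It held 1 match to the κB consensus, read on the minus strand and shown in capitals 92 bases before the start, and 0 matches to the ISRE core (RefSeq, GRCm38.p6, plus strand, chr17:35821463-35821712).
Ier3: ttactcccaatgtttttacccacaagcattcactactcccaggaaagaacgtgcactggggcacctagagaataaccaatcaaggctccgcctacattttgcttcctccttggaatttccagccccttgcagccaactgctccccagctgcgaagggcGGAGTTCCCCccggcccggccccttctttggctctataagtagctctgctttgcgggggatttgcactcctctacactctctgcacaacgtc

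The 3 listed entries of the *Bcl2a1* family, close relatives of the survival factor BFL-1, had log2 ratios of −0.19 to −0.18. *Bcl2a1a* and *Bcl2a1d* share 1 interval on chromosome 9, and another entry joins *Bcl2a1b* with its neighbours, so reads could not be assigned to single copies with certainty. *Cflar*, the inhibitor of caspase-8 known as c-FLIP, had means of 294 and 400.5 FPKM, a log2 ratio of 0.45, and *Bcl2l11*, which encodes the death factor BIM, had means of 41.8 and 39.7 FPKM.

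A search of the same kind was made in 82 of the 120 single genes for which a RefSeq window from 250 bases before to 50 bases after the start was at hand. Both strands were searched, and matches to the 2 motifs were counted independently of each other. The ISRE core was in 3.44% of all 32851 windows and in 4 of the 82 (4.88%): *Cxcl10*, *Edn1*, *Tnfrsf1b* and *Cflar*. By direction, it was in 2 of 11 genes at least 2-fold higher after LPS, 0 of 8 higher after R848 and 2 of 63 within 2-fold. The κB consensus was in 4.51% of all windows and in 24 of the 82 (29.3%). It was in 3 of 11 genes higher after LPS, 1 of 8 higher after R848, namely *Ier3*, and 20 of 63 within 2-fold. A match in such a short window describes the sequence and does not show a site in use. The authors list these genes as NF-κB-dependent. A higher share of κB matches than over all windows may therefore follow from how the list was made.

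Of 9 immediate early and cell cycle genes, 1 was at least 2-fold higher after LPS and 2 after R848, against 16.9% and 9.68% over all listed genes, with a median log2 ratio of −0.14. *Myc*, the growth-promoting transcription factor, had a mean of 5.84 FPKM without stimulus, 17.3 after R848 and 7.27 after LPS. *Plk3*, a kinase of the stress response, had a mean of 4.32 FPKM without stimulus, 9.53 after R848 and 3.71 after LPS. After LPS these 2 genes were therefore close to or below their unstimulated levels. *Ccnd2*, for the cell cycle protein cyclin D2, had a mean of 1.41 FPKM without stimulus, 16.3 after R848 and 56.3 after LPS, 3.46-fold higher after LPS. *Cdkn1a*, which encodes the cell cycle inhibitor p21, had means of 313 and 542 FPKM, a log2 ratio of 0.79. *Junb*, a subunit of AP-1, had means of 438 and 395 FPKM, and *Ier2*, another immediate early gene, had means of 64.5 and 34.8 FPKM, 1.85-fold higher after R848.

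Of 11 complement and acute phase genes, 3 were at least 2-fold higher after LPS and 1 after R848, against 16.9% and 9.68% over all listed genes. *Serpina3f* and *Serpina3g*, neighbouring genes for serine protease inhibitors on chromosome 12, had log2 ratios of 3.16 and 1.56, and their neighbour *Serpina3n* one of −0.11. These are related genes of low level, at most 9.13 FPKM, and reads could be shared among them. *Lcn2*, for lipocalin-2, which binds bacterial siderophores, had a mean of 1.61 FPKM without stimulus, 55.6 after R848 and 25.3 after LPS. *C3*, the central complement component, was near equal at 103 and 109.5 FPKM, and the joined entry of the complement proteases *C2* and *Cfb* was 1.90-fold higher after LPS. *Ptx3*, a long pentraxin, had means of 34.0 and 39.1 FPKM. The 3 *Orm* genes, for orosomucoids, had means of at most 1.43 FPKM.

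Of 7 genes of co-stimulation and dendritic cell maturation, 2 were at least 2-fold higher after LPS and 1, *Ccl17*, after R848, against 16.9% and 9.68% over all listed genes, with a median log2 ratio of 0.29. *Cd80*, which encodes the ligand B7-1 of CD28, had means of 15.6 FPKM after R848 and 32.3 after LPS, a 2.07-fold ratio. *Cd40* had means of 271 and 331 FPKM and *Cd83*, a marker of mature dendritic cells, means of 309 and 291 FPKM, so both were within 2-fold. *Ccr7*, the receptor that guides cells to lymph nodes, was low, at 2.71 and 1.73 FPKM. In the prostaglandin group, *Ptgs2*, which encodes COX-2, had a mean of 2.03 FPKM without stimulus, 452 after R848 and 226 after LPS, and thus lay at the edge of the 2-fold minimum. *Ptges*, for the synthase that makes prostaglandin E2 from the product of COX-2, had means of 166 and 146 FPKM.

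None of the 12 matrix, adhesion and coagulation genes passed 2-fold, where 73.4% of all listed genes were within it, although *Vcam1* did so relative to the 31 genes with the lowest folds, and their median log2 ratio was −0.21. *Fn1*, for fibronectin, had a mean of 340 FPKM without stimulus, 557 after R848 and 335 after LPS, so its mean after LPS was slightly below the unstimulated one. *Sdc4*, a heparan sulfate proteoglycan, had means of 580.4 and 928 FPKM, a log2 ratio of 0.68, and *Vcam1*, an adhesion molecule for leukocytes, had means of 48.8 and 84.0 FPKM, a log2 ratio of 0.78. *Mmp9*, a gelatinase, was lower after LPS, at 13.8 and 8.07 FPKM. Of 7 lineage and inflammatory transcription factors, *Irf1* alone passed 2-fold (73.4% of all listed genes were within it), and *Cebpd* came nearest to it in the other direction, with means of 27.5 and 15.3 FPKM. Of 7 genes of lipid, nucleotide and redox metabolism, 1 passed 2-fold toward LPS and 6 were within it, against 16.9% and 73.4% of all listed genes. The gene past it was *Lipg*, which encodes endothelial lipase, at low means of 0.590 and 2.23 FPKM. *Sod2*, for the mitochondrial superoxide dismutase, had means of 323 and 279.5 FPKM.

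Markers of other cell types were among the listed genes and differed with the stimulus. All 3 listed markers of neutrophils (*Mmp9*, *Lcn2* and *Trem1*, of 7 in the marker list) were higher after R848, with a summed mean of 6.11 FPKM without stimulus, 75.5 after R848 and 35.9 after LPS. Activated macrophages also make these transcripts, and the part of neutrophils in these ratios was not tested. Of 6 dendritic cell markers 3 were listed, with a summed mean of 2.11 FPKM without stimulus, 12.9 after R848 and 17.0 after LPS. Of these, *Ccr7* and *Ccl17* were higher after R848 and *Ccl22* after LPS. Of 6 stromal markers 3 were listed, with a summed mean of 4.87 FPKM without stimulus, 54.2 after R848 and 88.2 after LPS. Of these, *Sox9* and *Cyp7b1* were higher after R848 and *Vcam1* after LPS. Of 4 B cell markers, *Fcer2a* was listed. The part of these cells was not tested either.

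Set against unstimulated cells of the same genotype, the listed genes were higher after both ligands. Of 123 genes above 0 without stimulus, 118 (95.9%) were at least 2-fold higher after R848 and 106 (86.2%) after LPS. The authors list these genes as NF-κB-dependent and do not state how they were chosen, so high shares may follow from the list. A share over other genes could not be set beside them. The median fold over unstimulated cells was 7.27 for R848 and 8.93 for LPS. *Plk3* and *Fn1* were lower after LPS than without stimulus, and *Hamp* was lower after R848. Titles of the unstimulated libraries have another prefix than those of both stimulated groups, so a batch and the stimulus cannot be told apart in these folds, whereas the LPS and R848 libraries share a prefix.

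**Figure D3:**
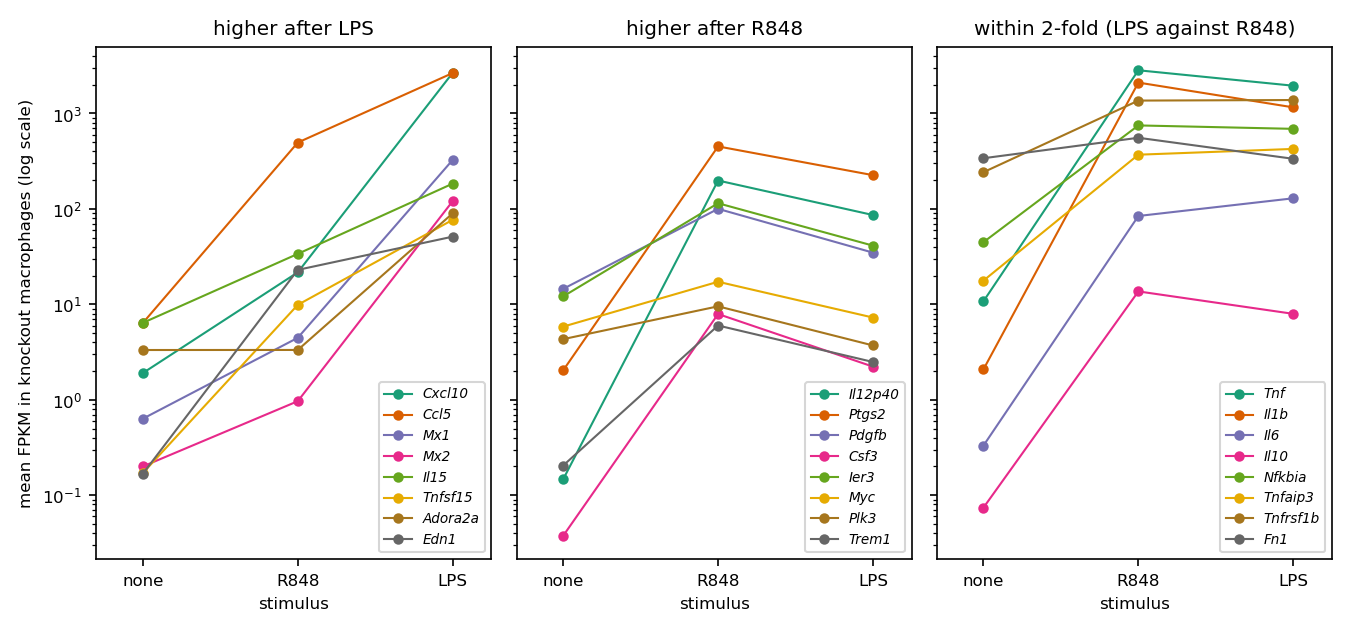
Mean FPKM (log scale) of 24 genes in *N4bp1-/-* macrophages with no stimulus, R848 or LPS (x axis), in 3 panels for genes at least 2-fold higher after LPS, at least 2-fold higher after R848 and within 2-fold; each point is 1 authors' mean over 2 mice, and lines join the points of a gene. *Adora2a* stays at 3.32 and 3.33 FPKM without stimulus and after R848 and stands at 89.9 after LPS, *Plk3* is at 3.71 after LPS and 4.32 without stimulus, and *Tnfrsf1b* is level at 1366 and 1384 after the ligands.

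The most abundant transcripts were largely shared. The 10 genes with the highest means held 54.9% of the summed FPKM of the list after R848 (29560) and 51.7% after LPS (33384), and 8 genes were among the 10 in both. *Cxcl10* and *Ccl5* joined them after LPS, where they were the first and the second, from ranks of 82 and 15 after R848. *Ccl9*, a monocyte chemokine, and *Nfkbia* were among the 10 after R848. *Ccl3*, *Tnf* and *Il1b* led after R848 and ranked 3, 4 and 9 after LPS. Apart from *Cxcl10* and *Ccl5*, the highest transcripts were thus shared in another order.

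In wild-type macrophages the same ratio was at least 2-fold toward LPS for 32 genes (25.8%) and toward R848 for 10 genes (8.06%), with a median log2 ratio of 0.22. All 21 genes past 2-fold toward LPS in the knockout were past it in the wild type too, and 11 were past it in the wild type alone. Toward R848, 6 genes were past 2-fold in both genotypes, 4 in the wild type alone and 6 in the knockout alone (*Csf3*, *Il23a*, *Ccl17*, *Ier3*, *Il12p40* and *Ptgs2*). After R848, *Il23a* (15.4 and 27.2 FPKM) and *Ccl17* (1.20 and 1.42) had lower means in the knockout than in the wild type, and *Csf3*, *Ier3*, *Il12p40* and *Ptgs2* higher ones. After LPS, *Il23a* (4.39 and 26.2), *Ccl17* (0.426 and 2.13) and *Il12p40* (86.3 and 158) were lower in the knockout, and *Csf3*, *Ier3* and *Ptgs2* higher. A further view is the sign: 24 genes were higher after R848 in the knockout and higher after LPS in the wild type. The reverse held for 3 (*Tnfrsf1b*, *Fas* and *C3*). Over all listed genes, 56 were higher after LPS and 68 after R848 in the knockout, against 77 and 47 in the wild type. The median log2 ratio was also lower in the knockout (−0.11) than in the wild type (0.22), so the list as a whole lay in that direction. Some of the 24 were near equal in the knockout, such as *Tfec* (−0.01), *Tnip1* (−0.05) and *Cd83* (−0.09), and their sign depends on the scaling. Others, such as *Il1b* (−0.86), were farther from equal. Whether the genotypes differ in these ratios was not tested, since each ratio has 1 mean on either side.

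Among interferon-inducible genes, the log2 ratio of LPS to R848 for *Mx1* was 6.19 in the knockout and 6.18 in the wild type. It was slightly smaller in the knockout for *Mx2* (6.96 and 7.15), *Irf1* (1.58 and 1.89), *Cd274* (1.36 and 1.52) and *Psme2* (0.43 and 0.52). The difference was wider for *Cxcl10* (6.95 and 8.14), *Cxcl9* (2.85 and 5.04), *Ccl5* (2.42 and 3.18) and *Il27* (1.77 and 3.16). The ratio was slightly larger in the knockout for *Tapbp* (2.56 and 2.16) and *Il15* (2.45 and 2.14). For *Il6* it was 0.62 in the knockout and 2.30 in the wild type, for *Il12p40* −1.20 and 0.78, and for *Edn1* 1.16 and 3.31. For *Tnf* it was −0.54 and 0.09, and for *Il10* −0.78 and −0.05. In these genes for cytokines and endothelin-1 the knockout ratio was farther toward R848. The median over all listed genes lay in the same direction, −0.11 in the knockout and 0.22 in the wild type. After R848 all of these named genes had higher means in the knockout than in the wild type. After LPS, *Il6* (129 FPKM in the knockout and 160 in the wild type), *Il12p40* (86.3 and 158), *Edn1* (51.2 and 110) and *Tnf* (1955 and 2281) had lower ones. *Il10* (7.95 and 3.43) had a higher one. The log2 ratios of *Pdgfb* (−1.52 and −2.45) and *Mmp9* (−0.78 and −1.92) were farther toward R848 in the wild type. Across the listed genes, which are not replicates and share their libraries, the ratios of the 2 genotypes had a Pearson r of 0.93 and a Spearman rho of 0.86.

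**Figure D4:**
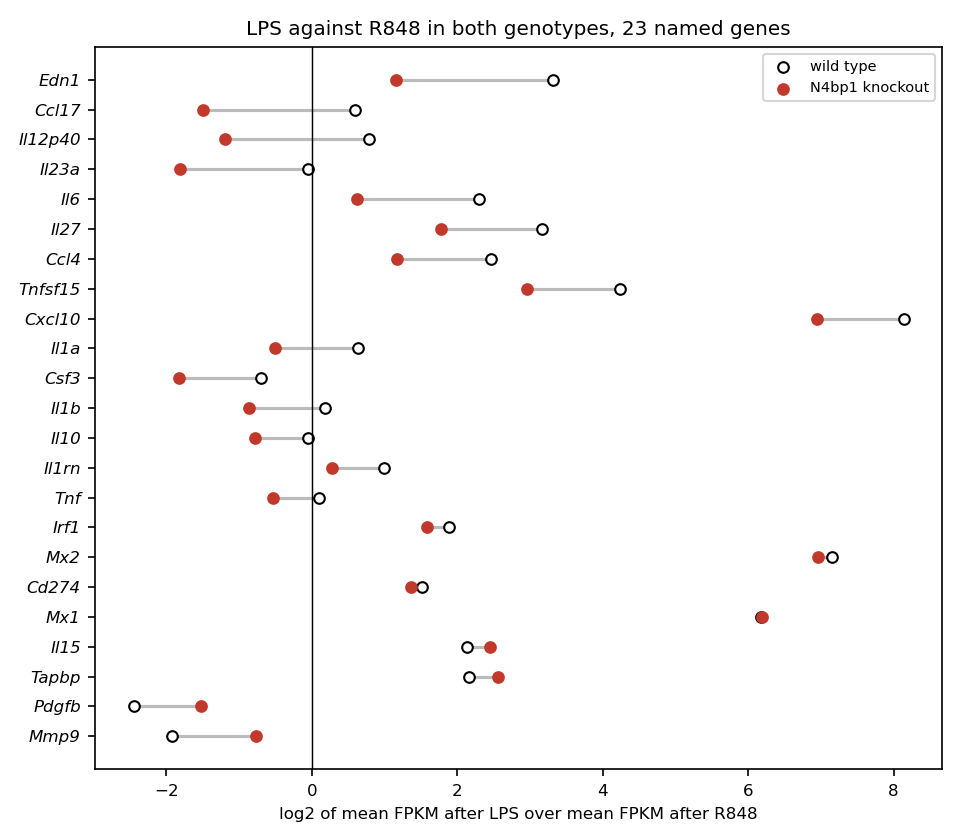
Log2 ratio of mean FPKM after LPS to mean FPKM after R848 for 23 genes, in *N4bp1-/-* (red) and wild-type (open) macrophages; each point is a ratio of 2 of the authors' means over 2 mice, a grey line joins the points of a gene, and the vertical line is an equal level. *Mx1* has nearly the same ratio in both (6.19 and 6.18), *Il6* has 0.62 in the knockout and 2.30 in the wild type, and *Pdgfb* and *Mmp9* are nearer to 0 in the knockout.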

How the data were processed

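RNA of peritoneal macrophages from wild-type and *N4bp1-/-* mice was sequenced for 3 treatments, none, R848 and LPS (6 groups of 2 mice, as labelled). Per the study's methods and the submitters' processing notes, the authors aligned reads with TopHat2 2.0.10 to mm10 (the assembly GRCm38) and assembled transcripts with Cufflinks 2.1.1, and base calls came from CASAVA 1.8.2. The methods also name cuffdiff for differential expression. The authors give the means after R848 and after LPS in separate comparisons of the genotypes. For the annotation used, the sources give nothing. The authors deposited FPKM values, 1 mean per gene, genotype and treatment over both mice, for 124 genes, 4 of them joined loci. Deposited columns with the log2 fold change, test score, p-value and q-value between genotypes were not used. Without counts the depth and precision are unknown, and no replicate could be left out.

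The log2 ratio of the knockout means, LPS over R848, was computed without pseudocount or filter, and a 2-fold minimum was applied with no test. Start positions had 1 added: 34 starts then equalled those of RefSeq. Intervals were over 2 times the RefSeq gene for 20 of 120 single genes. Besides *Cxcl10* and *Hamp*, these include *Ccl2*, *Ccnd2*, *Cebpd*, *Ebi3*, *Il27* and *Ptx3*, whose values are given above. Motifs were sought in RefSeq windows (GRCm38.p6). Genes named are the 6 the study names, the 15 at either end of the ratios at 1 FPKM or more, up to 5 per list, the 10 highest means, the 6 largest differences from the wild type in each direction, near equal genes, and genes that change sign or side under an alternative or in the wild type. Other list members named were picked with their values in view. The members, lists and rule were chosen with earlier results of these data known. The 17 lists are interferon-inducible genes, inflammatory cytokines, IL-12 family, CC and CXC chemokines, growth factors, NF-κB and IκB proteins, ubiquitin editors, receptors, co-stimulation, survival, immediate early, complement, prostaglandin, matrix, transcription factor and metabolism genes, with 6 cell type marker lists. Alternatives were pseudocounts of 1 and 0.1 FPKM, 2 scalings, a minimum of 1 FPKM, joined loci left out, and fold minima of 1.5 and 4. The ratio step was tested on simulated data. Python 3.11.15, numpy 2.4.6, pandas 2.3.3 and matplotlib 3.10.9 were used.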

Additional observations from a re-analysis of the deposited data

How the results depend on the processing

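With a fold minimum of 1.5 in place of 2, the number of genes higher after LPS was 32 and after R848 was 24, and with a minimum of 4 the numbers were 11 and 0. Relative to the median listed gene, which moves every log2 ratio by 0.11, the median was 0 by construction, and 23 genes were higher after LPS and 11 after R848. Relative to the 31 genes least raised by either ligand, a shift of 0.31, the median log2 ratio was 0.20, 27 genes were higher after LPS and 6 after R848, and *Fcer2a*, *Il12p40*, *Lcn2*, *Myc*, *Ptgs2* and *Trem1* came within 2-fold, while *Ccl22*, *Cdkn1a*, *Csf1*, *Ripk2*, *Vcam1* and the entry of *C2* and *Cfb* passed it toward LPS. Thus small ratios, and the sign of list medians near 0, depend on how the treatments are scaled: 11 of 102 list medians under the alternatives had the other sign, among them those of the NF-κB and IκB proteins under both scalings. With a pseudocount of 1 FPKM the number higher after LPS was 21 and after R848 was 9, with *Ccl17*, *Fcer2a* and *Ptgs2* within 2-fold, and the log2 ratio of *Hamp* was 1.04, of *Lipg* 1.02, of *Serpina3f* 1.82, of *Cxcl9* 2.14 and of *Mx2* 5.95. In all, 13 genes changed side of the 2-fold minimum under an alternative, and of 428 values of named genes 8 moved by 1.5-fold or more. The 2 scalings shift every ratio by less than 1.5-fold, so only the pseudocounts could move a value that far. A pseudocount cannot change the sign of a ratio. That 0 genes past 2-fold changed direction was therefore fixed in advance and says nothing about how firm the ratios are. No paired analysis was possible because the deposited columns are means over both mice and carry no replicate numbers, so no mouse could be left out in turn either. The depth of the libraries is unknown, which limits the genes of low FPKM most.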
